A study of Mus musculus with 8 samples.

Results

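Islet alpha cells were compared with and without Exendin-4 (Ex-4), in wild type (WT) mice and in mice that carry Med14S983A, with single nucleus RNA-seq. The comparison was selected by column, as Ex-4 minus CON in the alpha cell columns of the deposited table within each genotype, and it rests on 4 of the 54 columns. Each column is 1 pool of nuclei of 1 condition and cell type. WT CON islets and Med14S983A CON islets were left untreated, and WT Ex-4 and Med14S983A Ex-4 islets received Ex-4 at 10 nM for 16 h. All of these islets had been isolated and kept in culture, and the Med14 change was carried in the whole body, so that every islet cell type of the mutant animals had it. Each of the 8 sublibraries mixed nuclei of all 6 conditions, so that a sublibrary does not replicate a condition. With 1 pool for each condition no test was possible. Condition cannot be told apart from islet preparation or barcoding well, and the intervals given cover counting error only.

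Alpha cells make glucagon, the hormone that raises blood glucose, from the proglucagon gene Gcg. Ex-4 is a long-lived agonist at the receptor of GLP-1, which couples to adenylyl cyclase, cAMP, protein kinase A and the transcription factor CREB. That receptor is abundant on beta cells and scarce on alpha cells, and GLP-1 is known to lower glucagon release, in part through insulin and somatostatin from neighboring cells. Med14 is the backbone subunit of Mediator, the complex that connects transcription factors with RNA polymerase II.

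Levels are counts per 10,000 counts of a column (CP10K). A difference is that of log2(CP10K + 1), and a gene was called higher or lower at 1.5-fold, or 0.58 on this scale. Of 17362 genes, 9487 passed the filter on low values in alpha cells and are called kept below. The alpha cell pools held 419293 counts in WT CON, 451338 in WT Ex-4, 810127 in Med14S983A CON and 793476 in Med14S983A Ex-4. Alpha cells supplied 10.3% of the counts of WT CON, 11.1% of WT Ex-4, 21.6% of Med14S983A CON and 21.7% of Med14S983A Ex-4. A pool with fewer nuclei and one with less RNA per nucleus cannot be told apart from these totals.

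The alpha cell label held against its markers. Gcg stood at 85.8 CP10K in the WT CON alpha cells, 0.375 in the WT CON beta cells and 1.16 in the WT CON delta cells. Of 10 alpha cell markers, 9 were kept, and Pou3f4 was listed at 0 in all 4 pools. The summed beta cell markers went from 34.0 to 19.7 CP10K in WT and from 15.4 to 16.0 in Med14S983A. Most of that sum was Slc30a8, a zinc transporter of secretory granules. Ins2, one of the insulin genes, was low in all 4 alpha pools. It stood at 1.10 CP10K in untreated WT, 2.37 in WT Ex-4, 1.75 in Med14S983A CON and 1.74 in Med14S983A Ex-4. Markers of other lineages were low, with sums under 1 CP10K. The summed PP cell markers were at most 0.901 CP10K, the Schwann cell ones at most 0.630 and the delta cell ones at most 0.355. The summed macrophage markers were at most 0.119 CP10K, the mesenchymal ones at most 0.0864, the ductal ones at most 0.272 and the endothelial ones at most 0.309, with Ptprc, Col3a1, Rgs5, Sox9 and Plvap at 0. Of the acinar markers only Cela1 is in the table, at 0.

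WT CON stood apart among the 4 CON and Ex-4 pools, to which all statements on a highest or lowest pool refer. After Ex-4, 162 genes (1.71% of those kept) were higher and 381 (4.02%) were lower in WT, 543 in all (5.72%). In Med14S983A, 4 genes (0.0422%) were higher and 0 were lower. The untreated pools of the 2 genotypes also differed, with 184 genes higher and 516 lower in Med14S983A CON than in WT CON. WT Ex-4 and Med14S983A CON differed in only 7 genes. The condition of each pool was taken from its column name, and no value here checks that name. Of the 381 genes lower after Ex-4 in WT, 380 had their highest level in WT CON among the 4 pools, beside 37.5% of all kept genes. Of the 162 higher, 161 had their lowest level there, beside 36.4%. A call in WT already sets WT CON above or below WT Ex-4, so that only the place of the Med14S983A pools was free in these counts. With Med14S983A CON in place of WT CON, 3 genes were higher and 4 lower in WT Ex-4. The calls in WT thus rest on the WT CON pool.

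**Figure D1:**
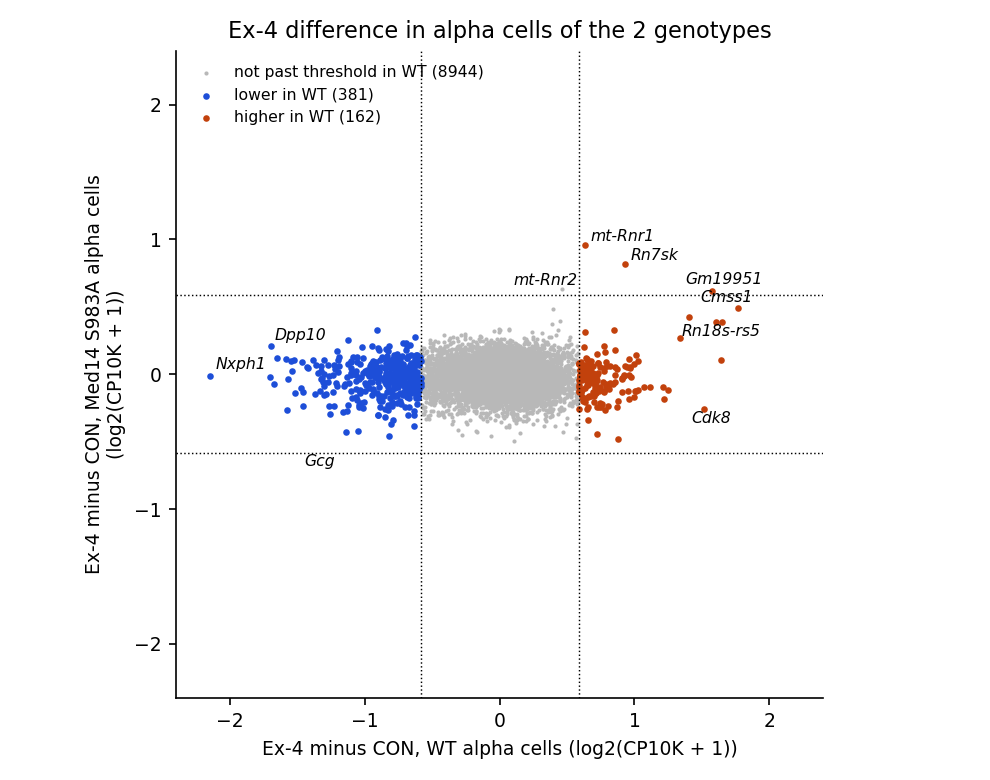
Ex-4 minus CON on the log2(CP10K + 1) scale for each of the 9487 kept genes, in WT alpha cells (x axis) and Med14S983A alpha cells (y axis). Dotted lines mark the 1.5-fold threshold. The colored genes, 381 lower and 162 higher in WT, spread along the x axis and stay close to 0 on the y axis, where mt-Rnr1, Rn7sk, mt-Rnr2 and Gm19951 are past the upper line.

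The split between higher and lower genes in WT moved with the scale. It was 29.8% higher as deposited. It was 55.1% (1920 higher and 1563 lower) with log2(CP10K + 0.1), which gives low genes more weight. It was 45.8% (261 and 309) once ribosomal RNA linked and mitochondrial genes were left out of the column totals and of the genes compared, and 47.6% (168 and 185) once a trend on gene length was removed. Composition moved with the comparison as well. Ribosomal RNA linked genes took 3.97% of the alpha cell counts in WT CON, 12.5% in WT Ex-4, 13.5% in Med14S983A CON and 17.5% in Med14S983A Ex-4. Genes longer than 100 kb took 50.5%, 37.1%, 34.9% and 34.7% in the same order. The forskolin (FSK) pools, which enter no Ex-4 comparison, had 5.37% (WT) and 5.19% (Med14S983A) for ribosomal RNA linked genes and 49.4% and 44.1% for long genes, nearer to WT CON than to the other pools. The part of composition in the calls was not tested beyond these alternatives.

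Gcg, at chr2:62304873-62313997 on the minus strand (GRCm39), was lower after Ex-4 in WT and not in Med14S983A. It stood at 85.8 CP10K in untreated WT, 34.1 in WT Ex-4, 35.2 in Med14S983A CON and 33.8 in Med14S983A Ex-4. The single high value of these is WT CON, and the other pools lie within a narrow band. The ratio of Ex-4 to CON was 0.397 (counting interval 0.374 to 0.422) in WT and 0.958 (0.908 to 1.01) in Med14S983A. The difference in WT, -1.31, was -1.18 after rescaling and -1.42 without the length trend. In the FSK pools Gcg stood at 115 CP10K in WT and 92.9 in Med14S983A.

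The 250 bases before the canonical start of Gcg (chr2:62313998-62314247, minus strand) are shown because it is the gene that defines the cell type, beside those of Slc7a2 (chr8:41315183-41315432, plus strand), lower in the same comparison, and of Prpf38b (chr3:108819045-108819294, minus strand) and Cdk8 (chr5:146167573-146167822, plus strand), both higher. Capitals mark TGACG or its complement CGTCA, the short core of the CREB motif TGACGTCA.
Gcg: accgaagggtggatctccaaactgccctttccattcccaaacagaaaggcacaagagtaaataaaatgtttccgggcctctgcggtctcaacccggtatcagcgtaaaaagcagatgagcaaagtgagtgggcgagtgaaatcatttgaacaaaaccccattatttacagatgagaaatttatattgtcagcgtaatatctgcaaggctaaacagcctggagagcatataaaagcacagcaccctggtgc
Slc7a2: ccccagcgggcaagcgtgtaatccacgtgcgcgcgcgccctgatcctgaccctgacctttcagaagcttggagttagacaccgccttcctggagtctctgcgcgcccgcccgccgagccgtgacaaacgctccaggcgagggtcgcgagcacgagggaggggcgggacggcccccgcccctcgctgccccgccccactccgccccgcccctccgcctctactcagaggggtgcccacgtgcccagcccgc
Prpf38b: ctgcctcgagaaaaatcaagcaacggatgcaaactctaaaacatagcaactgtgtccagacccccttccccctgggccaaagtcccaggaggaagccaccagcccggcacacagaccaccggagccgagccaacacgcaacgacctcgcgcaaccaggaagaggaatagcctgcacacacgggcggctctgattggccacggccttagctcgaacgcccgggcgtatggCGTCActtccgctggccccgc
Cdk8: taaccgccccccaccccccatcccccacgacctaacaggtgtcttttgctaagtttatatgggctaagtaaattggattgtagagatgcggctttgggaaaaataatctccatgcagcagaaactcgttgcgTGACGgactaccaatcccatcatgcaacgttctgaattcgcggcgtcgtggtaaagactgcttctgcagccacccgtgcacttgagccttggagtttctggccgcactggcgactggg

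The core, on either strand, was present in 24.3% of such windows of all kept genes (2249 of 9260), in 35.0% of those of genes higher in WT (55 of 157) and in 14.4% of those of genes lower in WT (54 of 375). The full motif, which contains the core on both strands, was present in 2.04%, 0.637% and 1.87%. The windows of Gcg and Slc7a2 hold no core in these 250 bases, and bases further upstream were not searched. The 4 windows printed do not stand for their groups, since the core was in 4 of the 10 windows of the genes with the largest increase and in 1 of 8 for the largest decrease. These are matches of letters in a short window and say nothing about binding.

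Other genes that mark alpha cells differed in direction. Ttr, which encodes the carrier transthyretin, had 4.17 CP10K in untreated WT, 1.2 in WT Ex-4, 1.07 in Med14S983A CON and 1.07 in Med14S983A Ex-4. Etv1, an ETS family transcription factor, had 12, 4.61, 4.0 and 3.78 CP10K in the same order. For both, WT CON alone was high. Irx1, a homeobox factor, had 0.572, 1.09, 0.913 and 0.466 CP10K, and its difference of 0.41 in WT was below the threshold. Of the 9 kept markers 4 were lower, beside 4.02% of all kept genes, and 0 were higher.

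**Figure D2:**
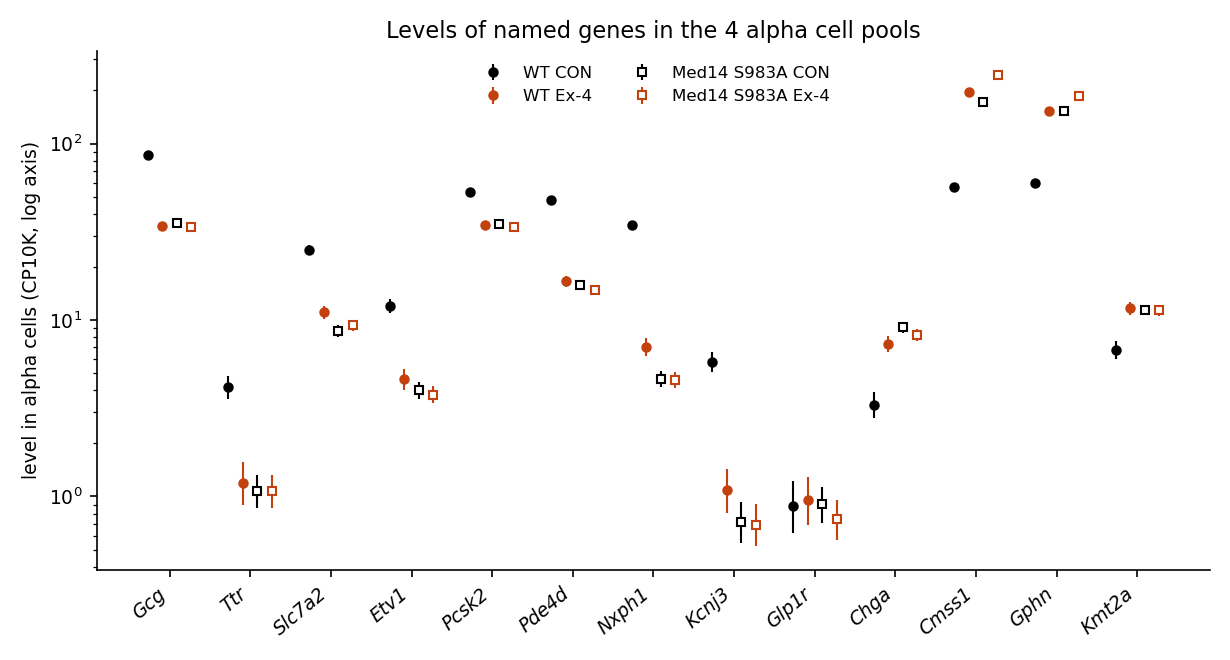
Levels of 13 named genes in the 4 alpha cell pools, in CP10K on a log axis. Circles are WT and squares Med14S983A, black is CON and orange is Ex-4, and bars are exact 95% Poisson intervals that cover counting error only. For Gcg, Ttr, Slc7a2, Etv1, Pcsk2, Pde4d, Nxph1 and Kcnj3 the WT CON point lies above the other pools, and for Chga, Cmss1, Gphn and Kmt2a below them.

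The transcription factor list had 24 kept members, of which 6 (25.0%, beside 4.02% of all kept genes) were lower in WT (Etv1, Tcf7l2, Rfx3, Meis2, Foxp2 and Foxp1) and 0 were higher, with a median difference of 0.02 beside 0.02 for all kept genes. Rfx3, a regulator of islet endocrine cell maturation, stood at 3.65 CP10K in untreated WT and 1.84 in WT Ex-4. Tcf7l2, the nuclear effector of Wnt signaling, stood at 1.96 and 0.709. The calls of Rfx3, Tcf7l2 and Meis2 were lost once the length trend was removed (-0.45, -0.57 and -0.44), and that of Meis2 after rescaling (-0.56). Foxp2 and Foxp1 were not followed under these alternatives.

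The receptor for Ex-4 was scarce in alpha cells. Glp1r stood at 0.882 CP10K in untreated WT, 0.953 in WT Ex-4, 0.901 in Med14S983A CON and 0.744 in Med14S983A Ex-4. The 4 pools overlap within counting error, and the beta cell level in WT CON was 9.39. Gipr, the receptor of the other incretin, had 0.978, 1.57, 1.65 and 1.64 CP10K. Gcgr, the glucagon receptor, was near the floor of 3 counts at 0.0477, 0.133, 0.0864 and 0.101 CP10K. Among 14 kept receptors that act on glucagon secretion, 2 were lower in WT (14.3%, beside 4.02% of all kept genes). Grik2, a kainate type glutamate receptor, was among them (3.72 to 1.06 CP10K). The list median was -0.05, and 0.01 after rescaling.

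Of 24 kept members of the cAMP pathway 1 was lower (4.17%), a share near the 4.02% of all kept genes. Rapgef4, which encodes the cAMP sensor Epac2, stood at 9.75 CP10K in untreated WT and 6.16 in WT Ex-4. Its call was lost after rescaling (-0.47) and without the length trend (-0.31). The list median was -0.09. None of 12 kept CREB-induced early genes was called in either direction, beside 5.72% of all kept genes. So short a list can hold no call at that share. The list median was 0.01, and -0.01 with the median of all genes set to 0. These islets were sampled after 16 h, and the paper states that induction of core CREB targets fades within hours. Of 14 kept phosphodiesterases and receptor kinases, Pde4d and Pde3b were lower (14.3%, beside 4.02% of all kept genes). Both encode enzymes that degrade cAMP. Pde4d stood at 47.7 CP10K in untreated WT, 16.5 in WT Ex-4, 15.9 in Med14S983A CON and 14.7 in Med14S983A Ex-4, so that WT CON again stood alone. The median of that list was -0.24, and about 0 once the length trend was removed.

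Of 31 kept ion channel genes 10 were lower (32.3%, beside 4.02% of all kept genes), and 0 were higher. They include Kcnip4, Cacna2d3, Kcnb2, Trpm3, Kcnk3, Cacna2d1, Cacnb2, Kcnma1 and Itpr1. Kcnip4, which modifies A-type potassium currents, stood at 12.7 CP10K in untreated WT, 5.25 in WT Ex-4, 3.90 in Med14S983A CON and 4.85 in Med14S983A Ex-4. Only the 4 channel calls with the largest difference were followed under the alternatives. Of these, Cacna2d3 (-0.44) and Kcnb2 (-0.47) were lost as calls with the length trend removed. Whether the smaller channel calls remain without that trend is not given here. The list median was -0.24, and -0.03 without the length trend.

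Genes of the granule and of prohormone processing went both ways. Of 32 kept members 2 were higher (Chga and Pclo), 6.25% beside 1.71% of all kept genes. Another 4 were lower (Rab3c, Slc30a8, Stxbp5l and Pcsk2), 12.5% beside 4.02%. Pcsk2, the convertase that cuts proglucagon to glucagon, stood at 53.4 CP10K in untreated WT, 34.7 in WT Ex-4, 34.9 in Med14S983A CON and 33.6 in Med14S983A Ex-4. Its difference of -0.61 only just passed the threshold, and it became -0.48 after rescaling and -0.33 without the length trend. Stxbp5l was lost in the same way (-0.55 and -0.37). Chga, the granule protein chromogranin A, ran the other way at 3.32, 7.33, 9.12 and 8.27 CP10K, and WT CON was the low pool. Pclo, a large scaffold of the active zone, had 4.08, 8.64, 9.01 and 8.96 CP10K. The list median was -0.15.

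Amino acid transport and sensing links alpha cells to circulating amino acids. That list had 6 lower (30.0%, beside 4.02% of all kept genes) and 0 higher among 20 kept members. In WT beta cells 0 of the 17 kept there were called, beside 1.05% higher and 2.42% lower of genes kept in both cell types. Slc7a2, a transporter of arginine and other cationic amino acids, stood at 24.9 CP10K in untreated WT, 11.1 in WT Ex-4, 8.67 in Med14S983A CON and 9.35 in Med14S983A Ex-4. Glud1, glutamate dehydrogenase, had 3.12, 1.2, 1.11 and 1.07 CP10K, and Slc38a4, a transporter of neutral amino acids, had 3.70, 1.53, 2.35 and 2.28. In each of these the WT CON pool was the highest, and for Slc7a2 and Glud1 the others were close together. Slc7a8 and Sesn3 were called as well. The list median was -0.27, and -0.19 both after rescaling and without the length trend.

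Axon guidance and synaptic adhesion genes made the list with the most calls. Of 48 kept members 15 were lower (31.3%, beside 4.02% of all kept genes) and 0 were higher. The 4 members with the largest difference were Nrg1, a ligand of ErbB receptors (37.4 CP10K in untreated WT and 11.1 in WT Ex-4), the netrin receptor Unc5c (6.42 and 1.55), Nlgn1 (10.1 and 3.15) and Nrxn3 (2.43 and 0.421). The median of -0.33 became -0.01 once the length trend was removed. Beta cells had 17 of 41 kept members lower, beside 2.42% of genes kept in both cell types. Lower calls on this list were thus not limited to alpha cells.

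**Figure D3:**
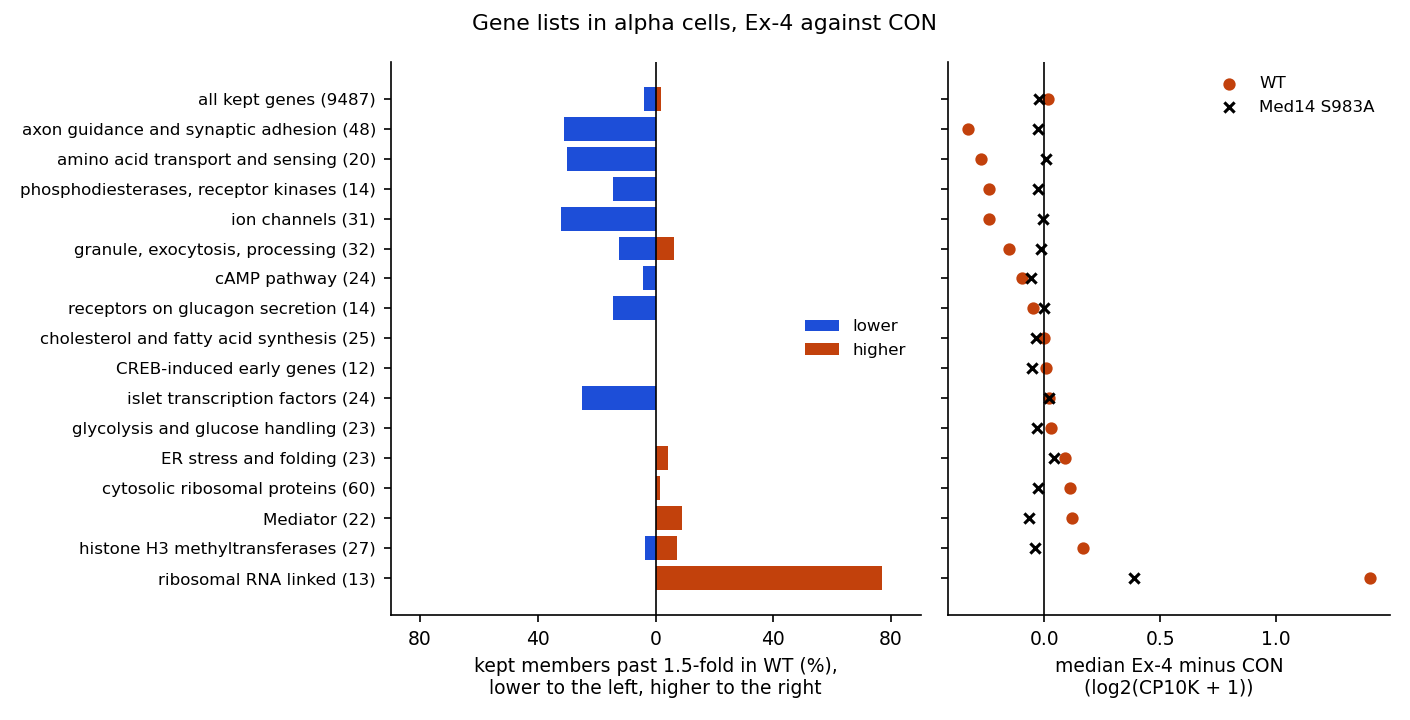
Gene lists in alpha cells, with the number of kept members in brackets. The left panel gives the share of kept members past 1.5-fold in WT, in percent, and the right panel the median of Ex-4 minus CON on the log2(CP10K + 1) scale in WT (orange) and Med14S983A (crosses). Of the lists drawn, ion channels, adhesion and amino acid genes have the highest shares of lower calls, and all Med14S983A medians but that of the ribosomal RNA linked list (0.39) lie near 0.

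The remaining lists had at most 3 calls each. Their shares are set beside the 5.72% of all kept genes called in either direction. Of 23 kept genes of ER stress and folding, Hsp90b1, an ER chaperone, was higher (4.35%, from 0.787 to 2.06 CP10K). None of 23 kept glycolysis genes or 25 kept genes of cholesterol and fatty acid synthesis was called. Of 22 kept Mediator genes Cdk8 and Med12, members of its kinase module, were higher (9.09%), and Cdk8 is on the ribosomal RNA linked list too. Med14 itself stood at 0.835 CP10K in untreated WT, 0.532 in WT Ex-4, 0.630 in Med14S983A CON and 0.542 in Med14S983A Ex-4, with counting intervals that overlap. A gene count cannot show a substitution such as S983A, so that this level is no check of the genotype. Of 27 kept histone H3 methyltransferases Kmt2a and Kmt2d, which act on lysine 4 of histone H3, were higher and Smyd3 was lower (11.1% in all). Of 60 kept cytosolic ribosomal protein genes only Rpl4 was called (1.67%), and it was higher. The medians of these lists lay between 0.00 (cholesterol and fatty acid synthesis) and 0.17 (methyltransferases). Without the length trend those of glycolysis and of ribosomal proteins, 0.03 and 0.11, turned negative (-0.065 and -0.017), and the cholesterol list was at -0.017 with the median of all genes set to 0.

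The largest decreases in WT after Ex-4 were mostly in long genes. Nxph1, a secreted ligand of neurexins, stood at 34.7 CP10K in untreated WT, 7.05 in WT Ex-4, 4.65 in Med14S983A CON and 4.6 in Med14S983A Ex-4. Its ratio in WT was 0.203 (0.180 to 0.230). Kcnj3, a subunit of G protein-gated potassium channels, had 5.80, 1.09, 0.716 and 0.693 CP10K, and Dpp10, which modifies potassium channels, had 21.0, 5.78, 4.05 and 4.85. All of them had a single high pool, WT CON. The other genes among the 10 with the largest decrease, next to Nrg1 and Unc5c, were Kctd16, Rbfox1, Dlg2, 9030622O22Rik and Prkg1, with differences from -1.65 to -1.55. The 381 lower genes had a median length of 264 kb, beside 37.8 kb for all kept genes with a length, and 347 of 375 of them (92.5%) overlapped another annotated gene, beside 81.0% of the higher genes and 82.5% of all kept genes. No source used here says if strand entered the counting, so reads of overlapping genes cannot be told apart. The median level of the lower genes was 3.89 CP10K in untreated WT, 1.55 in WT Ex-4, 1.39 in Med14S983A CON and 1.37 in Med14S983A Ex-4. In the FSK pools it was 3.42 in WT and 2.74 in Med14S983A.

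Ribosomal RNA linked loci led the genes that were higher. That list had 10 higher (76.9%, beside 1.71% of all kept genes) and 0 lower of 13 kept members, with a median of 1.4. Rn18s-rs5, an 18S ribosomal RNA locus, stood at 238 CP10K in untreated WT, 751 in WT Ex-4, 807 in Med14S983A CON and 1055 in Med14S983A Ex-4. Cmss1, at chr16:57122363-57427253 on the minus strand, had the largest difference of all, 1.77, with 56.7, 196, 173 and 243 CP10K. Filip1l lies within the span of Cmss1 on the other strand (chr16:57173135-57421279), and its 2.24, 9.13, 5.54 and 6.04 CP10K may share reads with it. Lars2, a mitochondrial leucyl-tRNA synthetase, had 53.0, 163, 152 and 199 CP10K. The Mediator kinase gene Cdk8 had 21.2, 62.6, 105 and 87.7 CP10K. In every one of these WT CON was the lowest of the 4 CON and Ex-4 pools. In WT FSK Cmss1 stood at 52.5 CP10K and Lars2 at 52.7, close to WT CON.

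Outside that list, Gphn, which encodes the scaffold gephyrin, stood at 59.4 CP10K in untreated WT, 152 in WT Ex-4, 153 in Med14S983A CON and 185 in Med14S983A Ex-4. Prpf38b, a pre-mRNA splicing factor, had 2.10, 6.38, 7.06 and 6.45 CP10K, and Golgb1, which encodes the Golgi protein giantin, had 4.08, 10.8, 11.1 and 9.64. Further higher genes, chosen after their values were seen and not as members of a list, were Srrm2 (8.94 to 19.3 CP10K), Rbm25 (5.18 to 11.4), Srsf11 (2.48 to 5.96), Ddx5 (9.87 to 20.3) and Son (6.18 to 13). In beta cells their differences were 1.01, 0.81, 0.71, 0.70 and 0.82. The 162 higher genes had a median length of 31.6 kb. Their median level was 1.44 CP10K in untreated WT, 3.15 in WT Ex-4, 3.21 in Med14S983A CON and 3.09 in Med14S983A Ex-4. In the FSK pools it was 1.97 in WT and 2.06 in Med14S983A.

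In Med14S983A alpha cells the called genes were mt-Rnr1 and mt-Rnr2, the mitochondrial ribosomal RNAs, Rn7sk, a small nuclear RNA that restrains the elongation factor P-TEFb, and Gm19951. mt-Rnr1 went from 1.47 to 3.81 CP10K, Rn7sk from 3.21 to 6.41, mt-Rnr2 from 1.74 to 3.25 and Gm19951 from 71.6 to 110. Of these, 3 were also called higher in WT, where mt-Rnr2 had a difference of 0.46, and mt-Rnr1 had 0.49 without the length trend. The median difference of all kept genes in Med14S983A was -0.02. The 162 genes higher in WT had a median difference of -0.03 there, with 59 above 0 and 103 below. The 381 genes lower in WT had a median of -0.02, with 159 above 0 and 222 below, and 0 reached the threshold. Both medians are near that of all kept genes, whose split around 0 is not given here, so these splits show no reversal. The untreated Med14S983A pool lay near WT Ex-4, so that a smaller response and another untreated level cannot be told apart. The difference of the 2 responses was not tested.

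The decrease and increase were partly shared with beta cells of the same islets, whose columns are separate. Beta cells had 95 genes higher (1.05% of the 9065 kept in both cell types) and 219 lower (2.42%). All 162 genes higher in alpha cells were kept in beta cells, and 77 of them (47.5%, interval 39.6 to 55.5) were called higher there, which is 81.1% of the beta cell calls. Of the 362 lower genes that were kept in beta cells, 104 (28.7%, 24.1 to 33.7) were called lower there, which is 47.5% of the beta cell calls. The genes called in alpha cells had median differences of 0.58 (higher) and -0.36 (lower) in beta cells, and of 0.57 and -0.47 in delta cells. Delta cells, with 160 higher (1.83% of the 8732 kept in both) and 285 lower (3.26%), shared 79 of the higher and 137 of the lower genes.

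**Figure D4:**
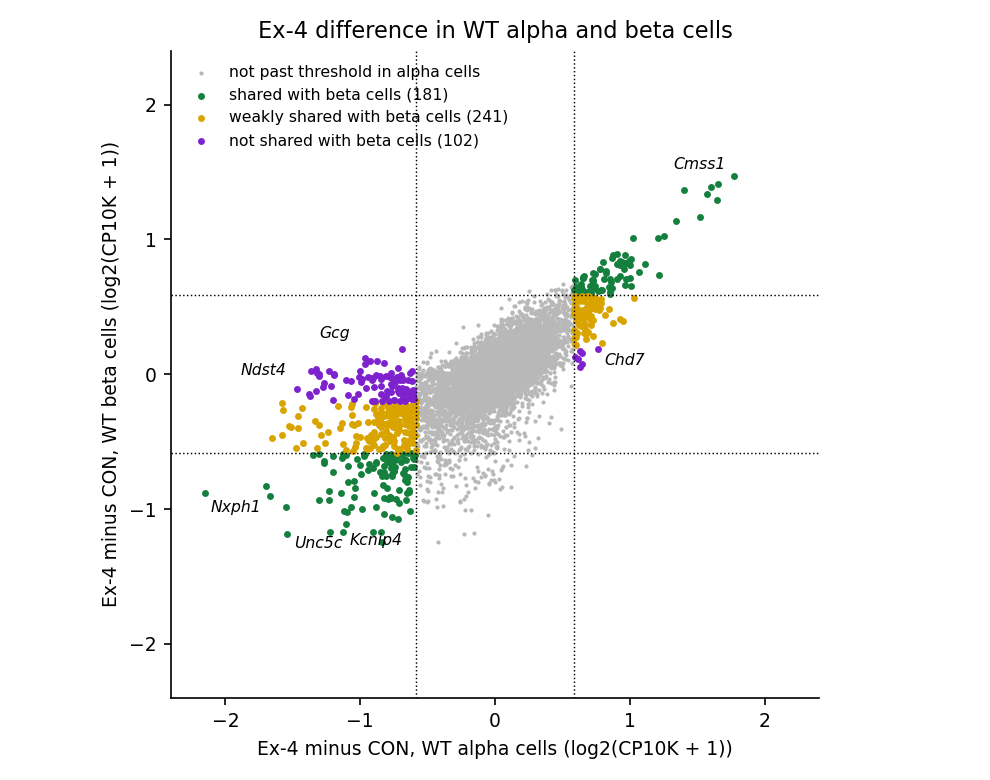
Ex-4 minus CON on the log2(CP10K + 1) scale in WT alpha cells (x axis) and WT beta cells (y axis). Green genes pass 1.5-fold in both, purple genes pass it in alpha cells and reach at most 0.2 in the same direction in beta cells, yellow genes lie between, and dotted lines mark the threshold. The 19 genes lower in alpha cells that were not kept in beta cells are not drawn. The higher genes run along a diagonal, whereas the lower genes spread from about 0 to well past the threshold on the beta cell axis.

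Genes were taken as not shared when they were called in alpha cells and differed by at most 0.2 in that direction in beta cells. This held for 7 of the higher genes (4.32%) and for 95 of the lower genes (26.2%, 21.8 to 31.1). Low beta cell levels compress a difference on this scale, and only 16 of the 95 had a mean of at least 1 CP10K in beta cells. By the ratio of levels, 309 of the 362 lower genes were also lower in beta cells with a counting interval that excluded 1, 42 of the 95 among them. The beta cell pools held 3012428 counts in WT CON and 2981093 in WT Ex-4, so that small decreases can exclude 1 as well. The share over all genes kept in both cell types is not given here, so these counts do not measure sharing. For 33 of the 95 the interval of the beta cell ratio excluded a decrease of 1.5-fold, and for 54 the alpha and beta cell intervals did not overlap. With 1 pool for each condition none of these differences between cell types could be tested.

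Gcg was among the genes not shared by either measure. Its beta cell level, 0.375 CP10K in untreated WT and 0.362 in WT Ex-4, gave a ratio of 0.966 (0.735 to 1.27). Pappa2, a protease that cleaves binding proteins of insulin-like growth factors, stood at 27.8 CP10K in untreated WT and 10.1 in WT Ex-4 alpha cells, a ratio of 0.361 (0.324 to 0.403). In beta cells it went from 1.10 to 0.892, a ratio of 0.812 (0.688 to 0.957), and in delta cells from 0.579 to 0.625. Astn2 went from 4.36 to 1.09 CP10K in alpha cells and stood near 0.1 in beta and delta cells, with a beta cell ratio of 1.26 (0.714 to 2.26). Sorcs1, a sorting receptor, stood below 0.1 CP10K in beta cells with a ratio of 1.84 and a wide interval (0.839 to 4.25). Etv1 was not shared by its difference (-0.08), but its beta cell interval of 0.628 to 1.06 did not exclude a 1.5-fold decrease. Glud1, at 0.591 and 0.547 CP10K in beta cells, had a beta cell ratio of 0.925 (0.744 to 1.15).

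Other genes were scarce in beta cells and had a small difference but a ratio below 1 there. Ndst4, an enzyme of heparan sulfate synthesis, went from 26.1 to 8.82 CP10K in alpha cells. In beta cells it went from 0.229 to 0.141, a difference of -0.11 but a ratio of 0.615 (0.409 to 0.916). Fgf14, which modulates sodium channels, went from 5.06 to 1.42 in alpha cells, from 0.299 to 0.195 in beta cells and from 35.9 to 8.78 in delta cells. Rasgrf2, an exchange factor for Ras, had a beta cell ratio of 0.746 (0.602 to 0.922). Of the 90 not shared lower genes that were kept in delta cells, 24 were called lower there and 40 differed by at most 0.2. The 19 lower genes that were not kept in beta cells include Kcnj3, Lama2, Plxdc2, Ccbe1, Prr16 and Klhl13, whose alpha cell differences ran from -1.70 to -1.04.

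The 7 genes that were higher in alpha cells and not shared were Chd7, Zscan18, Vps13c, Eml5, Pkd1, Sqstm1 and Soga1. Chd7, a chromatin remodeler, stood at 0.882 CP10K in untreated WT, 2.19 in WT Ex-4, 2.27 in Med14S983A CON and 1.81 in Med14S983A Ex-4, and its beta cell ratio was 1.17 (1.09 to 1.26). Vps13c, a lipid transfer protein, had 1.00, 2.13, 1.70 and 1.94 CP10K, and its beta cell ratio was 1.07 (0.983 to 1.16). Eml5 had 4.27, 7.16, 7.91 and 6.74 CP10K, with a beta cell ratio of 1.04 (0.992 to 1.09). WT CON was the lowest pool for each. Zscan18 was not shared by its difference alone, since its beta cell ratio was 1.68 (1.22 to 2.34). In alpha cells Soga1 fell short of the threshold once the median was set to 0 (0.57), and so did Sqstm1 without the length trend (0.53). In delta cells 0 of the 7 were called higher, beside 1.83% of the genes kept in alpha and delta cells. Only 2 of the 7 differed there by at most 0.2 in that direction, so most rose in delta cells below the threshold.

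**Figure D5:**
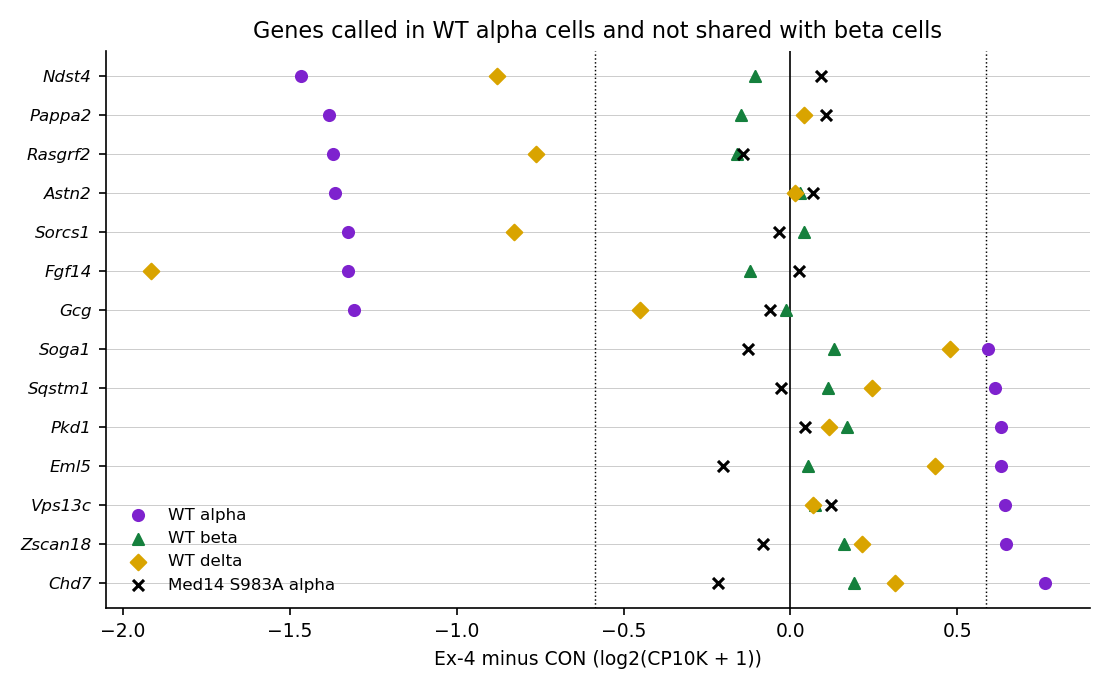
Ex-4 minus CON on the log2(CP10K + 1) scale for 7 of the 8 lower genes with the largest difference and the 7 higher genes that were called in WT alpha cells and not shared with beta cells. Circles are WT alpha, triangles WT beta, diamonds WT delta and crosses Med14S983A alpha cells, and dotted lines mark 1.5-fold. Ndst4, Rasgrf2, Sorcs1 and Fgf14 are past the line in delta cells too, while Pappa2 and Astn2 lie near 0 in both other cell types and in the mutant.

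A list of genes enriched in alpha cells was drawn from the FSK pools, which no Ex-4 comparison uses. The genes called lower had a median of 3.42 CP10K in WT FSK and 2.74 in Med14S983A FSK. It was 3.89 in WT CON and 1.55 in WT Ex-4. A list drawn from the FSK pools can therefore favor genes that are high in WT CON. The list held the 18 genes with at least 4-fold the level of beta, delta and PP cells and at least 1 CP10K. After Ex-4 in WT, 6 were lower (Pappa2, Astn2, Gcg, Adarb2, Egflam and Anks1b), 33.3% beside 4.02% of all kept genes, and 0 were higher. The list median was -0.44 beside 0.02 for all kept genes. In Med14S983A 0 were called, beside 0.0422% of all kept genes, and the median was -0.08 beside -0.02. Adarb2, of the adenosine deaminase family, stood at 3.67 CP10K in untreated WT, 1.37 in WT Ex-4, 0.95 in Med14S983A CON and 0.958 in Med14S983A Ex-4. Egflam, an extracellular matrix protein, had 4.67, 1.99, 1.70 and 1.68 CP10K. At the other end were Irx1, Irx2, Neb, Nlgn2 and Oxtr, with differences from -0.15 to 0.41, none of them called. Irx2, a homeobox factor of alpha cells, had 0.954, 1.48, 1.27 and 1.01 CP10K.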

How the data were processed

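Nuclei of cultured islets (from about 100 islets) were profiled by combinatorial barcoding. The authors aligned reads to mm39, filtered nuclei on extreme counts, genes and mitochondrial share, assigned cell types and pooled nuclei. Whether pooled counts were raw or corrected, and the annotation release, are not given in the sources used here. The deposited values are natural log values, ln(1 + 10000 × count / column total), for 17362 genes in 54 columns (6 conditions, 9 cell types). Whole counts were recovered from them (100% within 0.001). Genes were kept when their mean over 6 conditions reached the 40th percentile of detected genes. Intervals (95%) are exact Poisson for levels, Clopper-Pearson for shares and conditional Clopper-Pearson for ratios, and cover counting error only. The floor was 3 counts.

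Members, lists and rules were chosen with earlier results of these data known. Named genes were the 10 largest and 10 smallest WT differences at or above the median level with counting intervals apart, the 8 largest not shared each way, 5 alpha-enriched each way, called mutant genes, up to 4 called members of a list each way, and Gcg, Glp1r, Gipr, Gcgr and Med14. Markers came from a set list. Some genes that the rule names are not reported here. Alternatives were log2(CP10K + 0.1), no filter, a 75th percentile filter, 2-fold, a median of 0, rescaling without ribosomal RNA linked and mitochondrial genes, removal of a lowess trend (span 0.3) on gene length, and other limits for beta cells. Coordinates, lengths and upstream bases came from GRCm39 (GENCODE), with 16531 genes matched by name and 831 not. Calls were checked on data simulated with counting error alone. That check held no variation between islet preparations or wells, so it does not cover these limits. The work was done in Python 3.11.15 with scipy 1.17.1, numpy 2.4.6, statsmodels 0.14.6, pandas 2.3.3 and, for figures, matplotlib 3.10.9.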

Additional observations from a re-analysis of the deposited data

Results flagged for a closer look

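The following genes differed in opposite directions in alpha cells of the 2 genotypes, and the difference between the genotypes was not tested. For some of them the counting intervals of CON and Ex-4 overlap, such as Irx1 in WT and Chd7 in Med14S983A. Higher in WT and lower in Med14S983A after Ex-4 were Cdk8 (1.52 in WT and -0.258 in Med14S983A), Golgb1 (1.22 and -0.182), Chd7 (0.76 and -0.217), Eml5 (0.63 and -0.203) and Rpl4 (0.75 and -0.242). Irx1 had 0.41 in WT and -0.384 in Med14S983A and reached the threshold in neither. Lower in WT and higher in Med14S983A were Dpp10 (-1.70 and 0.213) and Kcnip4 (-1.13 and 0.256). None of the Med14S983A values reached 1.5-fold.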

How the results depend on the processing

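Of the summary results under each alternative, 149 stayed within their limits and 47 moved, and none changed direction at a called gene. With log2(CP10K + 0.1), calls were 1920 higher and 1563 lower in WT, and 231 and 507 in Med14S983A, the genes not shared with beta cells were 341 and 384, the medians in Med14S983A were -0.069 for the higher and -0.044 for the lower genes, and list medians were -0.27 for the cAMP pathway, -0.63 for phosphodiesterases and receptor kinases, -0.77 for adhesion, 0.24 for ER stress, 0.47 for Mediator and 0.50 for ribosomal proteins. With a filter at the 75th percentile, 35 lower genes were not shared, 35.7% of lower genes were shared, and medians were -0.77 for adhesion, 0.21 for cholesterol and fatty acid synthesis and 0.55 for ribosomal proteins. At 2-fold, 18 genes were higher and 94 lower in WT and 0 higher in Med14S983A, 0 and 23 were not shared, 61.1% and 6.90% were shared, and the median of the higher genes in Med14S983A was 0.0027. With the median set to 0, that of the lower genes was -4.5e-05. After rescaling, 261 genes were higher in WT and 0 in Med14S983A, where all 4 called genes are on the list left out, 13 higher genes were not shared, and the Med14S983A medians were 5.4e-04 and 0.021. Without the length trend, 185 genes were lower, 13 higher genes were not shared, 10.2% of lower genes were shared, the Med14S983A median of the lower genes was 0.0080, and medians were -0.033 for ion channels, -0.012 for adhesion and -0.017 for ribosomal proteins. Of the genes first called, 124 higher and 181 lower remained without that trend. Genes not shared were 2 and 52 at a beta cell difference of at most 0.1, 0 higher where alpha had to exceed beta by the threshold and, chosen after seeing the data, 4 and 16 at a beta cell mean of at least 1 CP10K and 13 and 46 by the beta cell ratio. The cause was not tested except for 2-fold and the stricter filter, which test a higher limit or fewer genes.

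No paired analysis was possible because each condition has 1 pool. Depth limits genes near the floor, such as Gcgr, whose alpha cell levels rest on few counts.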
